A study of Mus musculus with 23 samples.

Results

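The axon guidance ligands and receptors described here are the protein-coding genes of 4 classical guidance systems, measured by RNA sequencing in cultured mouse astrocytes, glia that support neurons and synapses. Members were chosen by symbol on the GRCm38 annotation of the files' Ensembl identifiers: names beginning with Sema, Plxn, Slit followed by a digit from 1 to 3, Robo, Ntn, Unc5, Epha, Ephb, Efna or Efnb, plus Nrp1, Nrp2, Dcc and Neo1. The rule gave 73 genes out of 38293 in the files and out of 21173 that were protein-coding. They comprise 36 ligands and 35 receptors: 20 semaphorins with 9 plexins and 2 neuropilins, 3 Slits with 4 Robos, 5 netrins with 6 netrin receptors, and 8 ephrins (5 ephrin-A, 3 ephrin-B) with 14 Eph receptors (9 EphA, 5 EphB). The other 2 members, Unc50 and Unc5cl, meet the rule by name alone and are not guidance receptors. Ntn3 is not analysed here. The test covered 16087 genes with enough counts, and 65 members were among them.

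Guidance cues tell growing axons and migrating cells where to go. Semaphorins act through plexins, with neuropilins as co-receptors for most of the secreted ones. Slits act through Robos, netrins through Dcc, Neo1 and the Unc5 receptors, and ephrins through Eph receptor tyrosine kinases, in which the membrane-bound ligand can also signal back into its own cell. Astrocytes make members of each system, and these have been linked to synapse formation, cell positioning, blood vessel patterning and responses to injury.

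The cells were primary astrocytes from the neocortex of pups at postnatal day 3, from mice of a hybrid background (BALB/c+C57BL/6 crossed with 129/OLa+129/Sv+), grown for 7 days and stated to be above 95% astrocytes. All groups then spent 24 h in 0.1% serum deprived of thyroid hormone. The 6 groups were control at 6 h, T3 (triiodothyronine, the active thyroid hormone, 10 nM) at 6 h, CHX (the usual short form of cycloheximide, which blocks protein synthesis; the labels give only the short form; 8 µg/ml) at 6 h, CHX added 30 min before T3 at 6 h, control at 24 h and T3 at 24 h. Each group had 4 libraries, except T3 at 24 h, which had 3. Nothing in the labels ties replicates to distinct cultures or litters, so a p-value here reflects library-to-library spread that may be purely technical. In bulk libraries such as these, fewer cells of a type and less RNA per cell cannot be told apart.

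Libraries held 13843040 to 22997873 gene counts. Hr and Klf9, textbook direct targets of T3, marked the hormone in every T3 group: Hr stood at 10.8 ± 1.32 CPM (SD, n = 4) in 6 h controls and at 205 ± 14.7 CPM (SD, n = 4) with T3, where CPM is a gene's counts scaled to 1e+06 counts per library after normalization. Astrocyte markers were abundant, with summed levels of 9213 to 14785 CPM for 15 genes. Summed oligodendrocyte lineage markers (12 genes) stood at 535 to 1142 CPM, neuron markers (14 genes) at 460 to 641 CPM and microglia markers (13 genes) at 42.0 to 149 CPM. Vascular and meningeal markers (16 genes) summed to 2224 to 4139 CPM, with the endothelial genes Cldn5 and Pecam1 at or below 0.466 CPM in every group. Over all genes replicate 1 of T3 at 24 h stood farthest apart: it differed from the other 2 by chi-square values per degree of freedom of 29.5 and 37.5, while no other replicate pair exceeded 15.9. It held the highest vascular and meningeal sum, 4139 CPM against 3467 and 3075 CPM. The main counts at 24 h are therefore given with and without it. Replicate 4 of CHX stood apart in markers of several cell types. In genes of oligodendrocyte precursors, Sox10 stood at 51.0 CPM against 13.1 to 19.6 CPM and Pdgfra at 79.4 CPM against 34.7 to 39.3 CPM in the other CHX libraries. Its summed oligodendrocyte lineage markers stood at 628 CPM against 556 to 577 CPM. Astrocyte markers summed to 11197 against 9503 to 9864 CPM and neuron markers to 567 against 483 to 498 CPM. Microglia markers summed to 73.3 against 49.2 to 63.6 CPM, and vascular and meningeal markers to 2224 against 2575 to 2835 CPM.

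Levels were compared between genes as CPM per kilobase of merged exons. In 6 h controls the highest member was Plxnb2, a receptor for class 4 semaphorins, at 136 ± 11.7 CPM per kb (SD, n = 4). Next came its relative Plxnb1 at 54.0 ± 6.90, the laminin-related netrin Ntn4 at 45.3 ± 3.47, the Eph receptor Epha4 at 36.8 ± 1.36 and the netrin and RGM receptor Neo1 at 33.7 ± 1.58. Plxnb1 and Ntn4 lay within the sum of their SDs of each other, as did Neo1 and Unc50 (33.6 ± 4.20). Plxna1 (29.4 ± 3.01), Sema5b (28.9 ± 4.54) and Efnb1 (26.0 ± 3.79) followed with overlapping spreads. The top genes of the Slit and Robo system were lower on this measure: over all 6 groups Slit2 averaged 8.64 and Robo2 5.91 CPM per kb. That order depends on merged exon length, which is 25433 bases for Slit2 and 16983 for Robo2 against 3741 for Ntn4. Merged exons can be longer than the transcript in use. Without the division, 6 h controls summed to 211 ± 20.5 CPM for the 3 Slits, 145 ± 11.1 for the 4 Robos and 277 ± 21.7 for the 5 netrins (SD, n = 4).

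Within each family the levels spanned a wide range. Averaged over the groups, plexins ran from 121 CPM per kb (Plxnb2) to 0.301 (Plxnb3), semaphorins from 31.7 (Sema5b) to 0.215 (Sema3a), and netrin receptors from 34.7 (Neo1) to 0.130 (Dcc). EphA receptors ran from 54.1 (Epha4) to 0.206 (Epha6), whereas the 5 EphB receptors lay closer together, from 9.85 (Ephb4) to 5.12 (Ephb2). Nrp1 stood at 3.81 and Nrp2 at 2.34 CPM per kb. The ephrin-B ligand Efnb1 was at 27.1, and Efna1, the highest ephrin-A, at 6.07. Dcc, the attractive netrin receptor of neurons, never exceeded 59 counts in a library.

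The other 8 members did not have enough counts for the test: Epha1, Epha8, Epha10, Robo3, Robo4, Ntn5, Sema3g and Unc5cl. No library held more than 13 counts of any of them, and their group means were at most 0.387 CPM. Robo3 and Robo4, at or below 0.158 CPM, are known from commissural neurons and from endothelium. In the fit with no filter on low counts, Robo4 was called between the control times, at 0.158 ± 0.0561 CPM (SD, n = 4) at 6 h and 0.0276 ± 0.0319 CPM (SD, n = 4) at 24 h, from at most 4 counts in any library.

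**Figure D1:**
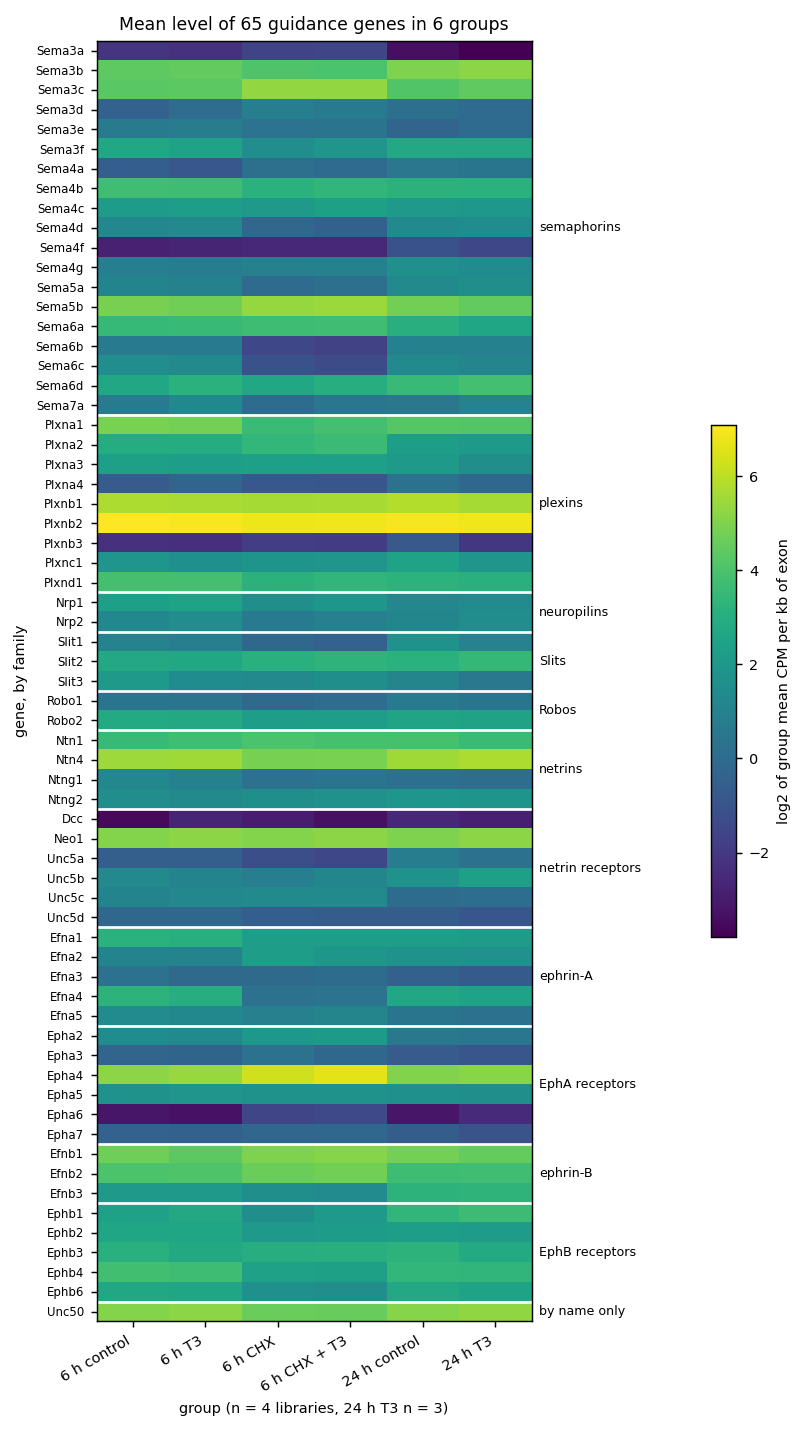
Mean level of the 65 tested members in the 6 groups (columns), in CPM per kilobase of merged exons on a log colour scale, with 1 gene per row and genes ordered by family. Plxnb2 is the brightest row in every column, and Efna4, Sema6c and Sema6b darken in both CHX columns.

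Per group, the summed level of all 36 ligands was 1628 ± 137 CPM (SD, n = 4) in 6 h controls and 1629 ± 85.6 CPM (SD, n = 4) with T3. For the 35 receptors the sums were 3395 ± 274 and 3339 ± 261 CPM. With CHX the ligand sum was 1809 ± 58.7 CPM and the receptor sum 3173 ± 73.9 CPM. The sums hid opposite movements. EphA receptors summed to 384 ± 14.3 CPM in 6 h controls and 736 ± 36.4 CPM with CHX, every CHX library (705 to 786) lying above every control (371 to 403). EphB receptors stood at 265 ± 23.6 and 164 ± 5.02 CPM, again without overlap (241 to 298 against 159 to 168). Epha4 alone held 296 ± 10.9 CPM of the EphA sum in controls, while the EphB sum was spread over Ephb2 (79.4 ± 10.2), Ephb4 (65.2 ± 3.32), Ephb3 (57.4 ± 8.12), Ephb1 (37.8 ± 1.84) and Ephb6 (25.4 ± 2.99).

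The first question was which guidance genes responded to T3 within 6 h. The ligands Sema7a and Sema6d and the receptor Ephb1 rose, and the ligand Efnb1 fell, in 6 h T3 libraries. These 4 of 65 tested members compare with 3.77% of all 16087 genes called in either direction at a Benjamini-Hochberg adjusted p under 0.05 by edgeR's quasi-likelihood test (3 higher and 1 lower, against 2.61% and 1.16% of all genes). The median log2 fold change over the 65 members was -0.05, beside 0.00 over all genes. No plexin, neuropilin, Slit, Robo, netrin, netrin receptor, EphA receptor or ephrin-A was called. An unadjusted p under 0.05 was found for 12 members, a count not set beside all genes here. Astrocyte markers summed to 12932 to 13633 CPM in controls and to 14709 to 14785 CPM with T3. Gfap alone stood at 4357 ± 257 and 5335 ± 224 CPM (SD, n = 4 each). Of the 15 astrocyte markers 1 was called higher and 1 lower, with a median log2 fold change of 0.06. Other sums overlapped between the groups: neuron markers ran from 540 to 583 and from 570 to 641 CPM, and vascular and meningeal markers from 3349 to 3643 and from 2872 to 3396 CPM. The part of these markers in the results was not tested.

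Sema7a is a semaphorin held to the membrane by a lipid anchor, which binds integrins and the plexin Plxnc1. It stood at 5.44, 5.61, 4.66 and 4.77 CPM in the 4 controls and at 8.46, 7.48, 7.80 and 8.14 CPM in the 4 T3 libraries at 6 h. Every T3 library lay above every control, and the log2 fold change was 0.64 (SE 0.11, adjusted p = 0.00080). At 24 h it stood at 4.09, 4.65, 4.57 and 5.59 CPM in controls and at 6.55, 6.46 and 6.99 CPM with T3, again without overlap (log2 fold change 0.50, SE 0.12, adjusted p = 0.00891). Its GRCm38 locus is chr9:57940112-57962865, plus strand.

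Sema6d, a transmembrane semaphorin that signals through class A plexins, stood at 69.7, 67.5, 72.1 and 64.6 CPM in 6 h controls. With T3 it stood at 105, 78.9, 96.3 and 97.4 CPM. The groups did not overlap, T3 replicate 2 being the lowest of its group, and the log2 fold change was 0.46 (SE 0.11, adjusted p = 0.0107). Without T3 replicate 1 the adjusted p was 0.0527 and the call was lost.

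Ephb1, a receptor tyrosine kinase for ephrin-B ligands, was the member called in all 3 T3 comparisons. It stood at 37.0, 35.7, 40.0 and 38.5 CPM in 6 h controls and at 53.3, 44.0, 47.7 and 46.0 CPM with T3 (log2 fold change 0.34, SE 0.06, adjusted p = 0.00205). At 24 h the controls stood at 78.0, 75.0, 72.6 and 66.5 CPM and the T3 libraries at 90.5, 88.0 and 88.7 CPM (0.29, SE 0.07, adjusted p = 0.00617). In the presence of CHX it stood at 20.9, 22.8, 22.7 and 19.9 CPM without T3 and at 29.9, 27.8, 29.2 and 28.0 CPM with T3 (0.41, SE 0.07, adjusted p = 0.00069). In none of these comparisons did the groups overlap, while the starting level differed from about 21.6 CPM with CHX to 73.0 CPM in 24 h controls. Ephb1 lies at chr9:101922128-102354693 on the minus strand (GRCm38), and 152 of its exon bases are shared with Gm26846 on the other strand, which reads from this kit cannot separate.

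Efnb1, a transmembrane ephrin-B ligand of EphB receptors, stood at 91.3, 92.5, 103 and 71.7 CPM in 6 h controls and at 73.3, 74.3, 72.0 and 60.2 CPM with T3. It fell by 0.36 on the log2 scale (SE 0.10, adjusted p = 0.0397), with control replicate 4 lying among the T3 libraries. Leaving out any one of control replicates 1, 2 and 3 or T3 replicates 1, 3 and 4 lost the call, with adjusted p up to 0.176. At 24 h its log2 fold change was -0.32 (SE 0.11, adjusted p = 0.0712).

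**Figure D2:**
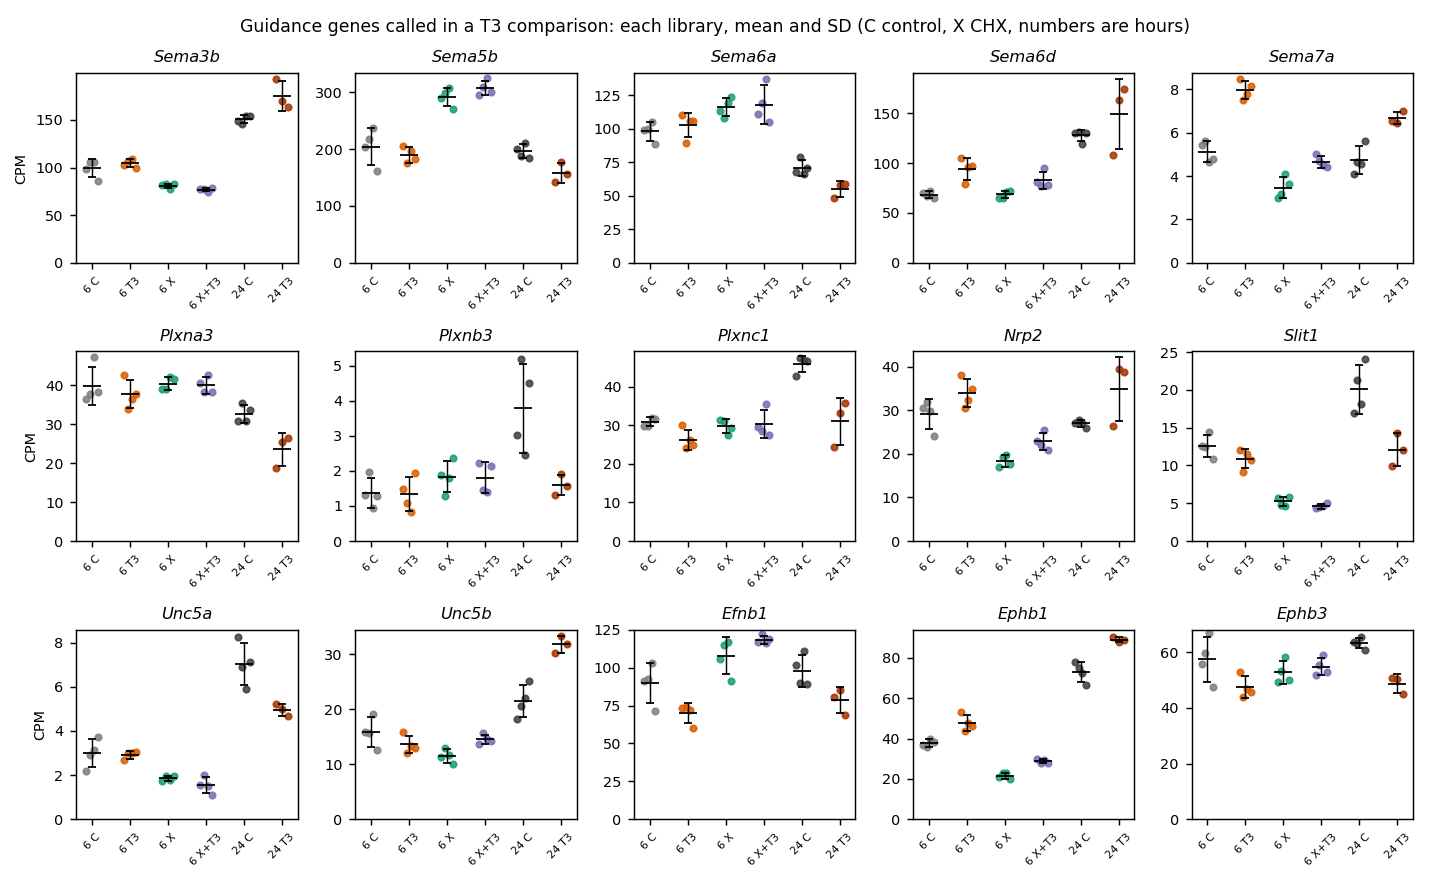
CPM of the 15 members called in at least 1 T3 comparison, with 1 panel per gene, 1 point per library, and the mean and SD of each group (C control, X CHX, times in hours). The T3 points of Sema7a and Ephb1 lie above their control points at both times, and those of Slit1 and Plxnb3 lie below theirs at 24 h.

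Ephb1 and Sema7a were the members called both at 6 h and at 24 h, so the 250 bases before their annotated starts are shown. Both windows come from RefSeq on GRCm38.p6 and are printed 5′ to 3′ on the gene's strand: chr9:102354694-102354943 for Ephb1, minus strand, and chr9:57939862-57940111 for Sema7a, plus strand. Capitals would mark AGGTCA, the hexamer that thyroid hormone receptors recognise, on either strand; neither window holds it.
Ephb1: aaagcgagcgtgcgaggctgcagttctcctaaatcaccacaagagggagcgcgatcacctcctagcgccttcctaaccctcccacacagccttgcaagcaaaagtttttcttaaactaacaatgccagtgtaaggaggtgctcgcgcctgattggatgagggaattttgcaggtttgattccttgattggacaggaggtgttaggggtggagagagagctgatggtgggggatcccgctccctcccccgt
Sema7a: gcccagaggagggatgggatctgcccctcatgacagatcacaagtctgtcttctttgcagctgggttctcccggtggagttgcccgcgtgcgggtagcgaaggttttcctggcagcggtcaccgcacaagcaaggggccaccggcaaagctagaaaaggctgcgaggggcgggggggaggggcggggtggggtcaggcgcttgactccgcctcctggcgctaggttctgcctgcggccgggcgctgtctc

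Promoter windows of 300 bases (250 before and 50 after the start) were present for 63 members, 79 windows in all. AGGTCA occurred on either strand in 11 of them, 13.9%, against 16.3% of all 32851 windows. The direct repeat of this motif with 4 bases between the copies was in 0 member windows and in 5 of all windows. Of the 15 members called in a T3 comparison, 12 had a window and none of these held AGGTCA. Nrp1 and Sema5a, which were called at 24 h once T3 replicate 1 was left out, do hold it. These counts describe the letters in these windows and no more. The matches in both genes and in 3 members not called with T3 under either fit are shown with up to 10 bases on each side and the hexamer in capitals: Nrp1 at chr8:128358823-128358842, Sema5a at chr15:32244664-32244689 and Ntn4 at chr10:93640817-93640842 on the plus strand, and Plxnb2 at chr15:89174141-89174166 and Sema6b at chr17:56134001-56134026 on the minus strand. In Nrp1 the match is on the other strand and reads TGACCT. The Sema5a match lies before the annotated gene. Those of Nrp1, Ntn4, Plxnb2 and Sema6b lie inside the annotated gene, before RefSeq starts that are farther in than its 5′ end.
Nrp1: ctagTGACCTtcttcccgcg
Sema5a: gggcctgggaAGGTCAggggtgggtg
Ntn4: ggcacccgcgAGGTCAggcagggaga
Plxnb2: cccctgctccAGGTCAggtggcgcag
Sema6b: cgcagtgcagAGGTCAgcctcctgga

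At 24 h the T3 comparison called more members, and more of them were lower than higher. The receptors Unc5b, Nrp2 and Ephb1 and the ligands Sema7a and Sema3b rose, while Slit1, Sema5b, Sema6a, 3 plexins (Plxnb3, Plxnc1, Plxna3), Unc5a and Ephb3 fell. That is 13 of 65 members, 5 higher and 8 lower, beside 7.09% of all genes called in either direction (4.41% higher and 2.68% lower). The median log2 fold change over the members was -0.09, beside 0.00 over all genes. No EphA receptor, ephrin, Robo or netrin was called.

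Without the T3 library that stood apart, replicate 1, the split turned to 11 higher and 6 lower, beside 611 higher and 352 lower of 16285 genes tested. Of the 13 calls 10 were shared, Sema3b, Sema5b and Sema6a were lost, and Epha4, Neo1, Nrp1, Sema3c, Sema5a, Sema6d and Slit2 became called as higher. The counts for T3 at 24 h therefore rest in part on this library. Sema6d stood at 130, 131, 119 and 130 CPM in 24 h controls and at 108, 163 and 174 CPM with T3, replicate 1 lying below every control and the other 2 above. Its log2 fold change was 0.22 (SE 0.11, adjusted p = 0.257) with all libraries and 0.40 (adjusted p = 0.00295) without replicate 1. Sema5a showed the same split, with 36.3, 64.6 and 65.3 CPM in the T3 libraries against 43.6 to 53.7 CPM in controls.

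Among the ligands, Slit1 fell by 0.73 on the log2 scale at 24 h (SE 0.13, adjusted p = 0.00052). Slit1 encodes a secreted repellent that acts through Robos. The 24 h controls stood at 16.9, 21.3, 18.2 and 24.1 CPM and the T3 libraries at 9.89, 14.3 and 12.1 CPM, with no overlap. The other Slits were not called: Slit2 had a log2 fold change of 0.30 (SE 0.12) and Slit3 of -0.55 (SE 0.22), with adjusted p of 0.152 and 0.131.

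Sema3b, a secreted semaphorin that binds neuropilins, stood at 149, 146, 154 and 154 CPM in 24 h controls and at 193, 170 and 163 CPM with T3 (log2 fold change 0.22, SE 0.06, adjusted p = 0.0392). Sema5b and Sema6a, both transmembrane semaphorins, fell by 0.30 (SE 0.09, adjusted p = 0.0481) and by 0.36 (SE 0.09, adjusted p = 0.0175). Sema5b stood at 200, 187, 211 and 185 CPM in controls and at 142, 177 and 156 CPM with T3. Sema6a stood at 67.8, 79.3, 66.0 and 70.8 CPM in controls and at 48.3, 58.3 and 59.0 CPM with T3. The groups of these 3 semaphorins did not overlap, but their calls were lost without T3 replicate 1, with adjusted p of 0.240, 0.210 and 0.108.

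Among the receptors, Unc5b had the clearest rise. Unc5b is a repulsive netrin receptor, and it stood at 18.2, 20.5, 22.1 and 25.1 CPM in 24 h controls and at 30.3, 33.3 and 31.9 CPM with T3. Every T3 library lay above every control, and the log2 fold change was 0.57 (SE 0.11, adjusted p = 0.00171). At 6 h it stood at 15.8, 15.7, 19.2 and 12.6 CPM in controls and at 15.8, 12.1, 13.3 and 13.0 CPM with T3, where the log2 fold change was -0.23 (SE 0.11, adjusted p = 0.323). The difference between the T3 effects at 24 h and 6 h was tested directly, and Unc5b was the member called for it: 0.79 (SE 0.16, adjusted p = 0.0139). It was 1 of 65 members, beside 0.839% of all genes, and of the 24 alternatives run 1, the fit of only the libraries compared, lost the call at an adjusted p of 0.0554.

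Unc5a, a relative of Unc5b, moved the other way at 24 h. It stood at 8.24, 6.92, 5.90 and 7.14 CPM in controls and at 5.23, 4.98 and 4.67 CPM with T3, and fell by 0.51 (SE 0.15, adjusted p = 0.0345). Its call was lost in 11 of the 16 alternatives. The other netrin receptors were not called: Neo1 had a log2 fold change of 0.20 (SE 0.08), and Unc5c of 0.06 (SE 0.15).

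Nrp2, the co-receptor that serves Sema3f among others, stood at 27.1, 27.8, 27.2 and 26.0 CPM in 24 h controls and at 26.4, 39.4 and 38.9 CPM with T3. Replicate 1 of T3 lay within the controls and the other 2 lay above them. The log2 fold change was 0.37 (SE 0.11, adjusted p = 0.0425) with that library and 0.53 (adjusted p = 0.00049) without it. Nrp1 moved by 0.23 (SE 0.09, adjusted p = 0.128) with it and by 0.34 (adjusted p = 0.0134) without it.

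Plexins had values below 0 for all 9 genes at 24 h, and 3 of them fell. Plxnc1, the plexin that binds Sema7a, stood at 42.8, 47.4, 46.9 and 46.7 CPM in controls and at 24.3, 33.2 and 35.9 CPM with T3, and fell by 0.56 (SE 0.10, adjusted p = 0.00081). Plxna3, which pairs with Nrp2, stood at 30.7, 35.3, 30.8 and 33.7 CPM in controls and at 18.7, 25.3 and 26.3 CPM with T3, and fell by 0.47 (SE 0.10, adjusted p = 0.00470). In both genes T3 replicate 1 was the lowest library and no T3 library reached a control. So Sema7a rose while its plexin fell in the same libraries.

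Plxnb3, known as a receptor for Sema5a and low in these cells, had the largest change of all members at 24 h. It stood at 3.02, 5.19, 2.45 and 4.51 CPM in controls and at 1.32, 1.90 and 1.56 CPM with T3, and fell by 1.24 (SE 0.28, adjusted p = 0.00596). The groups did not overlap. Control replicates 2 and 4, the highest for Plxnb3, were also the highest for oligodendrocyte lineage markers (878, 1065, 824 and 1142 CPM in replicates 1 to 4, against 849 to 937 CPM with T3) and for microglia markers (82.8, 123, 69.3 and 149 CPM, against 80.2 to 91.0 CPM). The same 2 controls were the highest for Slit1. Without them Plxnb3 was at -0.77 (adjusted p = 0.216) and Slit1 at -0.54 (adjusted p = 0.0281), and 7 members were called, beside 391 higher and 251 lower of 16229 genes tested. Since these 2 were the highest controls for both genes, leaving them out shrinks both falls whatever the cell mix. The part of these other cells in the Plxnb3 result was not tested.

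Ephb3, an EphB receptor, fell by 0.38 at 24 h (SE 0.09, adjusted p = 0.00678). It stood at 63.7, 63.3, 65.4 and 60.9 CPM in controls and at 50.8, 50.5 and 44.8 CPM with T3, so the tight control group and the T3 group were well apart. Ephb1 and Ephb3 therefore changed in opposite directions with T3 at 24 h. At 6 h Ephb3 was at -0.28 (SE 0.08, adjusted p = 0.0558). Across all alternatives run at 24 h, the calls of Ephb3, Plxnc1, Slit1 and Unc5b were never lost. With a fit of the 24 h libraries alone, these 4 were also the ones called, beside 287 higher and 114 lower of 15558 genes.

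Some other calls at 24 h, with main adjusted p from 0.0175 (Sema6a) to 0.0481 (Sema5b), were lost when any of several single libraries was left out. No log2 fold change of a called member turned sign there. Nrp2 lost its call without any one of the 4 controls or without T3 replicate 2 or 3. Unc5a lost its call without control replicate 1, 2 or 4 or T3 replicate 2 or 3, and Sema3b without control replicate 1, 2 or 4 or T3 replicate 1 or 2. Sema5b lost its call without any one control or without T3 replicate 1 or 3, and Sema6a without control replicate 2 or T3 replicate 1. Without control replicate 2 the number of members called was 8, beside 487 higher and 323 lower of 16027 genes tested. The main fit called 709 higher and 431 lower of 16087 genes.

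**Figure D3:**
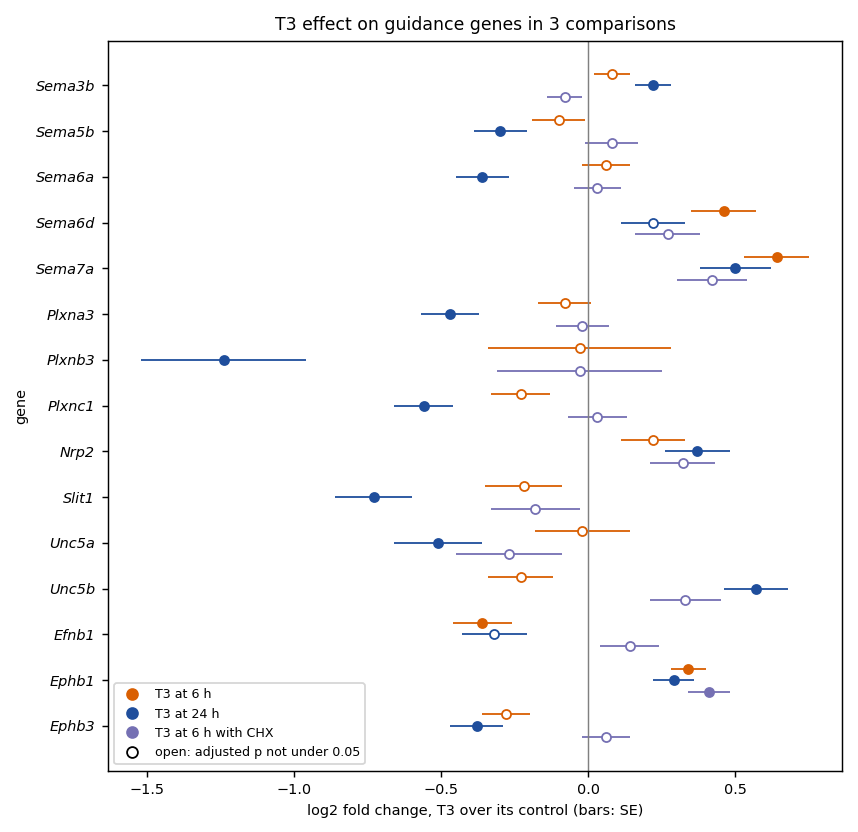
Log2 fold change of T3 over its control for the 15 members called in at least 1 T3 comparison, at 6 h, at 24 h and at 6 h with CHX, with bars for the SE and open symbols where the adjusted p was not under 0.05. Ephb1 is filled in all 3 comparisons, Sema7a at 6 h and 24 h, and Plxnb3 lies farthest to the left at 24 h, at -1.24.

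Next came the T3 response while protein synthesis was blocked. Ephb1 rose, as given above, and was the 1 member of 65 called when CHX plus T3 was compared with CHX alone, beside 1.29% of all genes. The median log2 fold change was 0.06 over members and -0.01 over all genes. An unadjusted p under 0.05 was found for 14 members, a count not set beside all genes here. The call of Ephb1 held in every alternative, with log2 fold changes of 0.38 to 0.53. The fit of only the libraries compared also called Epha4, Nrp1, Plxna1 and Sema6d, beside 339 higher and 68 lower of 15188 genes. DESeq2 called 3 members, beside 295 higher and 48 lower of 12967 genes.

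Other T3-called members had values in both arms that can be set side by side. Sema7a stood at 2.98, 3.18, 4.11 and 3.62 CPM with CHX and at 5.03, 4.68, 4.49 and 4.42 CPM with CHX plus T3, without overlap, and its log2 fold change was 0.42 (SE 0.12, adjusted p = 0.0888). Sema6d stood at 65.4, 65.2, 71.3 and 72.5 CPM and at 81.2, 77.1, 95.3 and 78.0 CPM, at 0.27 (SE 0.11, adjusted p = 0.268). Both missed the threshold in the main fit, although every library with T3 lay above every library without it. In edgeR alternatives Sema6d was called with only the libraries compared (adjusted p = 0.0443) and Sema7a without CHX replicate 3 (adjusted p = 0.0341). Efnb1 was at 0.14 (SE 0.10, adjusted p = 0.564). All CHX plus T3 libraries were sequenced on lane 6 and 3 of the 4 CHX libraries on lane 5, so lane and T3 are nearly confounded in this comparison.

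Whether T3 acted differently in the presence of CHX was tested for all 65 members, and 0 were called by the main edgeR fit, beside 1.22% of all genes (0.584% higher and 0.634% lower). At an unadjusted p under 0.05 there were 10, a count not set beside all genes here. DESeq2 called 4, Efnb1, Sema3f, Slit3 and Unc5b, beside 258 higher and 256 lower of 14526 genes. In edgeR, Efnb1 and Slit3 were also called with no filter, with only the libraries compared, with lane and with either replicate block. Sema3f and Unc5b were called in some of these fits. The values of the main edgeR fit were 0.50 (SE 0.14, adjusted p = 0.0689) for Efnb1, 0.59 (SE 0.18, adjusted p = 0.108) for Sema3f, 0.87 (SE 0.26, adjusted p = 0.0936) for Slit3 and 0.56 (SE 0.16, adjusted p = 0.0808) for Unc5b. For Sema7a the difference was -0.21 (SE 0.16) and for Ephb1 0.08 (SE 0.09).

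Genes that act downstream of guidance receptors were taken from a list of 65 signal transducers, all of which were tested. With T3 at 6 h 3 rose and 1 fell (6.15%, beside 3.77% of all genes). At 24 h 5 rose and 9 fell (21.5%, beside 7.09%), and with CHX plus T3 3 rose and 0 fell (4.62%, beside 1.29%). The median log2 fold changes were -0.03, -0.08 and 0.07. Nck2, an adaptor that links Eph receptors and Dcc to the actin skeleton, stood at 64.7 ± 3.39 CPM (SD, n = 4) in 24 h controls and at 93.4 ± 1.19 CPM (SD, n = 3) under T3, and rose by 0.53 (SE 0.06, adjusted p = 3.7e-07). With CHX it also rose, by 0.37 (SE 0.05, adjusted p = 0.00012). Chn1, a mediator of EphA4 signalling, rose by 0.34 (SE 0.07) at 24 h and by 0.33 (SE 0.07) with CHX.

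Further transducers called with T3 include regulators of actin, and those named are not all that were called. Vav2, an exchange factor used by Eph receptors, rose by 0.42 (SE 0.06) with CHX plus T3. Mical2, a relative of the plexin effector Mical1, fell by 0.87 (SE 0.25) at 24 h with controls at 5.58 ± 0.608 CPM (SD, n = 4) and T3 libraries at 3.03 ± 0.487 CPM (SD, n = 3), Grb10 by 0.50 (SE 0.09) and Pak3 by 0.44 (SE 0.10), and Vasp fell by 0.23 (SE 0.06) at 6 h.

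A list of 46 other guidance cues and co-receptors had 44 tested members. With T3 at 6 h 1 rose and 2 fell (6.82%, beside 3.77% of all genes), at 24 h 2 rose and 2 fell (9.09%, beside 7.09%), and with CHX plus T3 none was called. Draxin, a secreted repellent that binds Dcc and netrin, fell by 0.52 (SE 0.11, adjusted p = 0.00398) at 6 h and by 0.90 (SE 0.11, adjusted p = 5.2e-06) at 24 h, where controls stood at 252 ± 11.6 CPM (SD, n = 4) and T3 libraries at 135 ± 8.17 CPM (SD, n = 3). Lingo1, a co-receptor of the Nogo receptor, fell by 0.42 (SE 0.08) at 6 h, and Met, the receptor of hepatocyte growth factor and a partner of class B plexins, rose by 0.49 (SE 0.09). At 24 h Gas1, a Hedgehog co-receptor, rose by 0.57 (SE 0.07) and the chemokine receptor Cxcr4 by 0.29 (SE 0.06), while Lrig1 fell by 0.35 (SE 0.07).

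With CHX alone the share of guidance genes called was near that of all genes. The ligands Efna4, Sema6c, Sema6b and Sema4d had the largest falls and the receptor Epha6 and the ligands Sema3d and Efna2 the largest rises. In all 48 of 65 members were called, 16 higher and 32 lower, beside 67.5% of all genes called in either direction. The share called lower was 49.2% of members against 30.6% of all genes, and the share called higher 24.6% against 37% of all genes. The median log2 fold change was -0.29 over the members and 0.06 over all genes, whose middle range (quartiles) ran from -0.38 to 0.57. The summed astrocyte markers moved too, from 12932 to 13633 CPM in controls to 9503 to 11197 CPM with CHX, oligodendrocyte lineage markers from 904 to 1020 CPM to 556 to 628 CPM, and vascular and meningeal markers from 3349 to 3643 CPM to 2224 to 2835 CPM. Microglia markers had a median of 79.1 CPM in controls and 57.3 CPM with CHX. The part of these shifts in the results was not tested.

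Efna4, a lipid-anchored ephrin-A ligand, stood at 14.5, 15.1, 14.0 and 16.6 CPM in controls and at 1.29, 2.53, 1.91 and 2.05 CPM with CHX. It fell by 2.95 on the log2 scale (SE 0.17, adjusted p = 1.3e-13), and the groups were far apart. Its exons share 168 bases with an antisense gene, 4731419I09Rik, which these reads cannot separate. Among its relatives Efna1 fell by 0.84 (SE 0.12) and Efna5 by 0.54 (SE 0.14), Efna2 rose by 1.20 (SE 0.12), from 4.57 ± 0.223 to 10.5 ± 1.57 CPM (SD, n = 4 each), and Efna3 was not called.

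Semaphorins split by gene: 6 of 19 tested rose and 9 fell. The class 6 transmembrane semaphorins Sema6c and Sema6b had the steepest falls. Sema6c stood at 17.3, 16.4, 21.5 and 13.6 CPM in controls and at 2.93, 2.85, 2.87 and 2.64 CPM with CHX (-2.61, SE 0.16, adjusted p = 2.4e-13), and Sema6b at 6.19, 8.23, 6.87 and 5.15 CPM and at 1.14, 1.24, 1.24 and 2.21 CPM (-2.19, SE 0.22, adjusted p = 2.9e-09). Both sets of libraries were clear of each other. Of the same class, Sema6d was at 0.00 (SE 0.11) and Sema6a rose by 0.24 (SE 0.08). Sema4d, the ligand of Plxnb1, fell by 1.53 (SE 0.12) from 19.0 ± 1.90 to 6.59 ± 0.946 CPM (SD, n = 4 each), and Sema4a rose by 0.76 (SE 0.13).

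The secreted class 3 semaphorins went both ways. Sema3c stood at 138, 138, 148 and 139 CPM in controls and at 283, 291, 296 and 280 CPM with CHX, a rise of 1.03 (SE 0.09, adjusted p = 6.5e-10). Sema3d rose by 1.23 (SE 0.17) and Sema3a by 0.61 (SE 0.23). Sema3f, a repellent that acts through Nrp2, fell by 1.17 (SE 0.13), from 34.0 ± 6.38 to 15.1 ± 2.68 CPM (SD, n = 4 each), and Sema3b fell by 0.29 (SE 0.06). Of the class 5 pair, Sema5a fell by 1.11 (SE 0.15) and Sema5b rose by 0.51 (SE 0.09).

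Semaphorin receptors mostly fell or were not called. Plxna1, a signalling partner of neuropilins, stood at 254, 272, 301 and 237 CPM in controls and at 109, 112, 122 and 102 CPM with CHX (-1.26, SE 0.10, adjusted p = 7e-11), with no overlap. Its exons share 970 bases with an antisense gene, Gm26811, which these reads cannot separate. Plxnd1, the receptor of Sema3e, fell by 0.72 and Plxnb2 by 0.30 (SE 0.06). Plxna2 was the 1 plexin that rose, by 0.46. Nrp1 and Nrp2 both fell, by 0.69 (SE 0.08) and 0.67 (SE 0.11).

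Among Eph receptors under CHX, 4 of 6 tested EphA rose and 0 fell (66.7% called), and 0 of 5 EphB rose and 4 fell (80%), shares that stand beside 67.5% of all genes. Epha4, which can bind both ephrin classes, stood at 286, 299, 310 and 289 CPM in controls and at 621, 641, 679 and 610 CPM with CHX (1.10, SE 0.10, adjusted p = 2.2e-10), every CHX library lying far above every control. Epha6 rose by 1.56 (SE 0.27), from 0.608 ± 0.237 to 1.83 ± 0.338 CPM (SD, n = 4 each), at 40 counts or fewer in any library, and Epha3 and Epha2 rose by 0.51 (SE 0.13) and 0.48 (SE 0.12).

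Ephb4, the receptor of Efnb2, stood at 63.3, 62.7, 70.0 and 64.6 CPM in controls and at 26.1, 27.2, 25.3 and 22.0 CPM with CHX (-1.37, SE 0.07, adjusted p = 1e-14). Its ligand Efnb2 moved oppositely, from 115, 112, 118 and 101 CPM to 176, 174, 174 and 163 CPM (0.62, SE 0.07, adjusted p = 1.3e-08). Neither gene had overlapping groups. Ephb6, an Eph receptor without kinase activity, fell by 1.08 (SE 0.09), Ephb1 by 0.81 (SE 0.07) and Ephb2 by 0.60, and Ephb3 was at -0.13 (SE 0.08, adjusted p = 0.176). Whether the 2 classes differ as classes was not tested.

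In the Slit and netrin systems Slit1 fell by 1.26 (SE 0.13), from 12.6, 12.5, 14.4 and 10.8 CPM to 5.66, 4.79, 4.67 and 5.88 CPM, and Slit3 by 0.75 (SE 0.18). Slit2 rose by 0.35 (SE 0.11). Both tested Robos fell, Robo2 by 0.59 (SE 0.10) and Robo1 by 0.45. Ntn4 fell by 0.66 (SE 0.06), from 169 ± 13.0 to 107 ± 5.77 CPM (SD, n = 4 each), and Ntng1, a lipid-anchored netrin that does not bind Dcc, fell by 1.02 (SE 0.13), whereas Ntn1 rose by 0.40. Of the netrin receptors Unc5a, Unc5b and Unc5d fell by 0.68, 0.46 and 0.44, and Neo1 was at -0.01 (SE 0.08).

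Of the 48 calls with CHX, 43 held in every alternative, the exceptions being Efnb1, Sema3a, Sema3e, Sema6a and Unc5d. The downstream list gave 15 rises and 32 falls among 65 transducers, or 72.3% beside 67.5% of all genes. Among those named, Nck1, an adaptor related to Nck2, rose by 0.81 (SE 0.06), and Mical1, the plexin-linked actin oxidase, fell by 2.38 (SE 0.08) and Dpysl2, a semaphorin mediator, by 1.29 (SE 0.08). Mical1 stood at 34.8 ± 2.06 CPM in controls and at 6.67 ± 0.695 CPM with CHX (SD, n = 4 each). Of 44 other cues and co-receptors 15 rose and 16 fell (70.5%). Flrt3, an Unc5 ligand, rose by 2.54 (SE 0.10), from 29.6 ± 1.25 to 172 ± 13.2 CPM (SD, n = 4 each), Kdr, a receptor that pairs with neuropilins, rose by 1.85 (SE 0.13), and Draxin and Lingo1 each fell by 1.12 (SE 0.11 and 0.09).

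**Figure D4:**
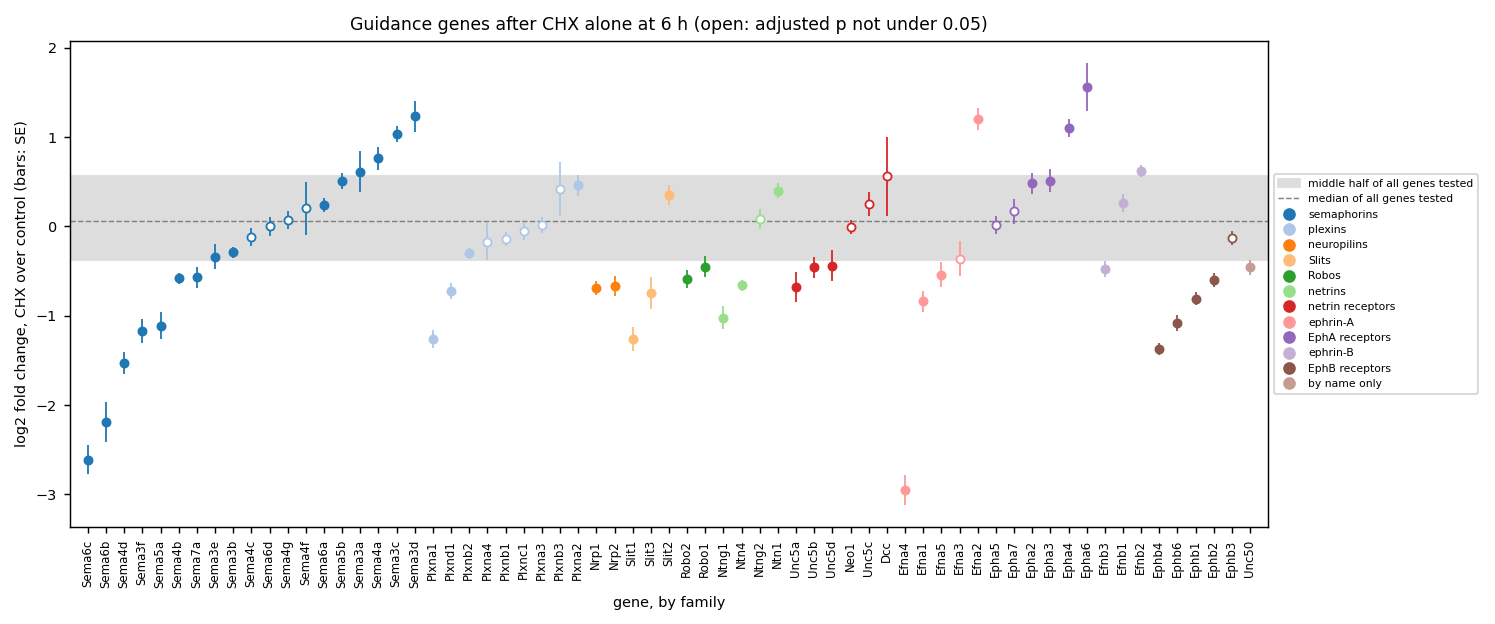
Log2 fold change of CHX over control at 6 h for the 65 tested members, grouped and coloured by family, with bars for the SE, open symbols where the adjusted p was not under 0.05, and a grey band for the quartiles of all genes (-0.38 to 0.57). Efna4 is the lowest point at -2.95 and Epha6 the highest at 1.56, and the EphA points lie at or above 0 while the EphB points lie below it.

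The controls at 24 h and 6 h differed in many guidance genes. Sema4f, Plxnb3, Unc5a, Efnb3 and Sema4a had the largest rises and Sema3a, Ntng1, Nrp1, Unc5c and Efna5 the largest falls. In all 42 of 65 members were called, 18 higher and 24 lower at 24 h, beside 56.6% of all genes in either direction (28.2% higher and 28.4% lower). Every 6 h control was sequenced on lane 5 and every 24 h control on lane 6, so time cannot be told apart from lane or from a culture handled on another day. With lane as a covariate 22 members were called, 9 higher and 13 lower, beside 2148 higher and 2266 lower of all 16087 genes. In that fit the step between those lanes comes from the CHX group alone, where only replicate 4 was on lane 6. That library stood apart in markers of several cell types, and every value given with lane rests on it.

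Efnb3, a transmembrane ephrin, stood at 13.9, 13.6, 15.9 and 11.7 CPM in 6 h controls and at 27.4, 31.7, 29.8 and 31.9 CPM in 24 h controls. The log2 fold change was 1.13 (SE 0.08, adjusted p = 7.6e-11), or 0.84 (adjusted p = 0.00048) with lane, and the groups did not overlap. Ephb1 rose by 0.95 (SE 0.06) and by 1.10 with lane, Sema6d by 0.90 (SE 0.11) and 0.79, and Unc5a by 1.24 (SE 0.15) and 1.15. Sema4a rose by 1.06 (SE 0.13) and by 1.20 with lane.

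Downwards, Nrp1 stood at 50.8, 46.3, 47.6 and 52.6 CPM at 6 h and at 21.9, 23.2, 26.1 and 21.3 CPM at 24 h (-1.09, SE 0.08, adjusted p = 1.3e-10, and -1.03 with lane). Unc5c, a repulsive netrin receptor, stood at 40.2, 40.3, 44.4 and 42.4 CPM and at 19.4, 20.0, 21.0 and 20.3 CPM (-1.05, SE 0.13, and -1.05 with lane). Both genes had tight groups that were clear of each other. Ntng1, Efna5, Sema3e and Epha2 fell by 1.13, 1.05, 0.97 and 0.93, and with lane by 0.75, 0.94, 1.00 and 0.78.

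The calls for Sema4f (1.75, SE 0.26, and 1.12 with lane at adjusted p = 0.102), Plxnb3 (1.46 and 0.95 at adjusted p = 0.184), Sema3a (-1.16 and -1.16 at adjusted p = 0.0601) and Slit3 (-0.92 and -0.19 at adjusted p = 0.735) were lost with lane. Sema4f had at most 57 counts in a library. All 5 ephrin-A ligands were called between the times, Efna2 higher by 0.65 (SE 0.13) and the other 4 lower, from -0.56 for Efna4 to -1.05 for Efna5. With lane, Efna1 and Efna5 kept their calls.

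**Figure D5:**
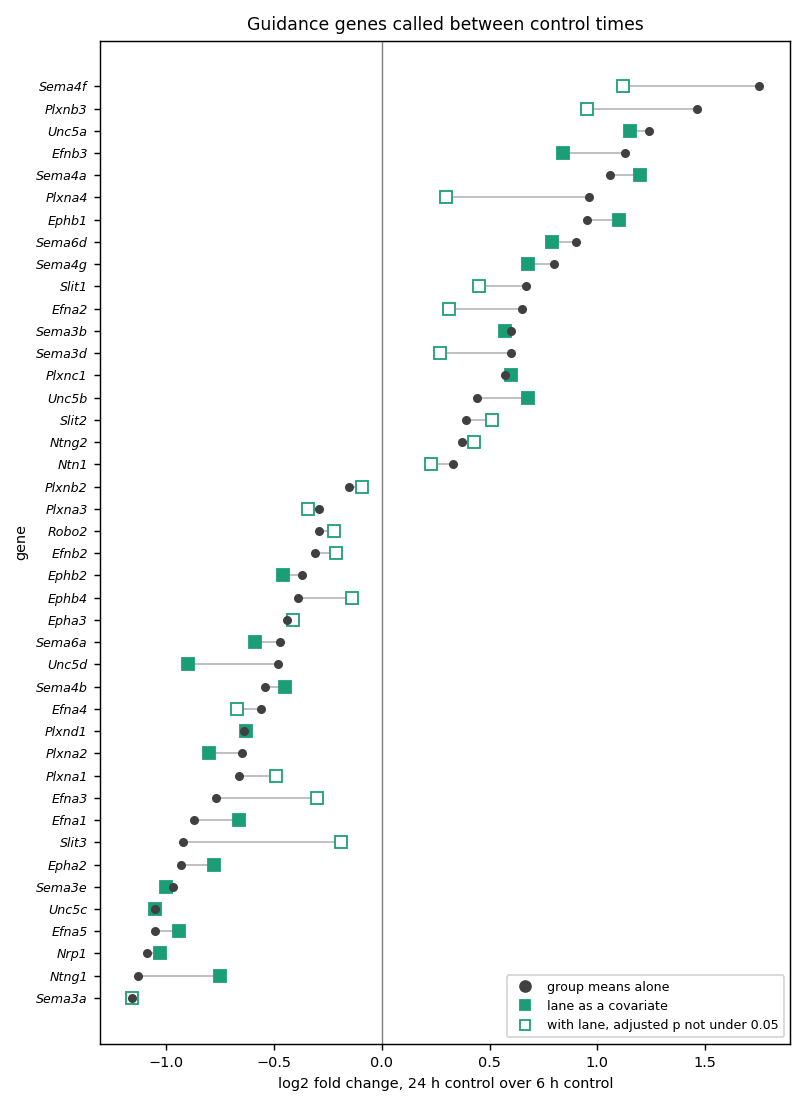
Log2 fold change of 24 h over 6 h controls for the 42 members called between them, from group means alone (dark circles) and with sequencing lane as a covariate (green squares, open where the adjusted p was not under 0.05). Nrp1 and Unc5c stay near -1 under both, whereas Slit3 moves from -0.92 to -0.19. The step between the lanes rests on replicate 4 of CHX, the only CHX library on lane 6.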

How the data were processed

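RNA was sequenced in 23 libraries as single reads of 50 bases. The authors deposited 1 table of read counts per gene for each library. Per the submitters' processing notes the tools included HTSeq, TopHat, Bowtie, edgeR, FastQC and bcl2fastq, and the build was GRCm38. Their versions, the counting mode and the strand setting are not given in the labels or notes, and the kit named in the labels marks no strand, so a gene and an antisense partner that share exon bases cannot be separated. Beside those flagged above, members with such shared bases include Efna3 (344), Plxnb1 (257), Unc5c (118), Plxna4 (110) and Epha6 (107). Entries tallied as aligned to more than 1 place were 30.7 to 42.3% of all entries in the deposited tables. A read with several placements may be tallied more than once, so this need not be a share of reads. Entries in no gene were 3.75 to 5.81% and ambiguous entries 1.40 to 1.71%. All of these stayed out of library sizes and tests.

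Symbols, classes and merged exon lengths came from GENCODE M21 (GRCm38) by Ensembl identifier, and promoter windows from RefSeq on GRCm38.p6. CPM was computed on TMM-scaled library sizes, and CPM per kb divided it by merged exon length. The deposited counts of the 16087 genes kept by filterByExpr (minimum count 10) were fitted with edgeR 4.0.16 (R 4.3.3, limma 3.58.1) over all 23 libraries, 6 group means and 17 residual degrees of freedom. The quasi-likelihood F test gave 7 comparisons, each adjusted over all genes by Benjamini-Hochberg, and calls are at an adjusted p under 0.05. Fold changes are log2 values from this fit. The script was tested on simulated data. Tables and figures were made with Python 3.11.15, pandas 2.3.3 and matplotlib 3.10.9.

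Alternatives were DESeq2 1.42.0, RLE size factors, no filter on low counts, only the libraries compared, sequencing lane as a covariate, a replicate block by title number or by description letter, and libraries left out singly or in pairs. Leaving out 24 h control replicates 2 and 4 together was chosen after seeing the data. Lanes are those in the names of the deposited tables. Members and gene lists were chosen with earlier results of these data known. Members named with values are all those called in a T3 comparison or a difference of T3 effects, up to 10 per direction with the largest change and a mean of at least 1 CPM for CHX and for time, the highest member of each family, and all that did not pass the filter. Of the 2 lists of other guidance genes, up to 3 called per direction are named, apart from some that are not reported here. Further members, given to complete a family, were chosen after their values were seen.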

Additional observations from a re-analysis of the deposited data

Results flagged for a closer look

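In 5 of 75 groups of 4 libraries checked over the 15 members called with T3, 1 library lay farther from the rest than Dixon's 95% critical value allows, a test that chance alone passes at a 5% rate. Efnb1 stood at 60.2 CPM in replicate 4 of T3 at 6 h, against 72.0 to 74.3 CPM in the others. Plxna3 stood at 47.2 CPM in replicate 3 of the 6 h controls, above the others. Plxnc1 stood at 42.8 CPM in replicate 1 and Sema6d at 119 CPM in replicate 3 of the 24 h controls, each below the others. Unc5a stood at 2.67 CPM in replicate 1 of T3 at 6 h, below the others.

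The effect of T3 on Unc5b differed between 24 h and 6 h by 0.79 on the log2 scale (SE 0.16, adjusted p = 0.0139 by edgeR's quasi-likelihood test). The alternatives gave 0.68 to 0.88, with adjusted p from 0.00073 to 0.0554, and the call was lost with only the libraries compared in the fit.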

How the results depend on the processing

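The main numbers of members called were 4 for T3 at 6 h, 13 for T3 at 24 h, 1 for T3 with CHX, 48 for CHX alone, 42 for time, 0 for the difference of T3 effects with and without CHX, and 1 for that between 24 h and 6 h. The shares of all genes called were 3.77, 7.09, 1.29, 67.5, 56.6, 1.22 and 0.839%, in that order. With only the libraries compared they were 7, 4, 5 and, for the 2 differences, 3 and 0. Over all genes that fit called 537 higher and 277 lower of 14831 at 6 h, and 287 and 114 of 15558 at 24 h. With CHX it called 339 and 68 of 15188. For the differences it called 253 and 244 of 15526, and 35 and 27 of 15777. DESeq2 gave 3 for T3 with CHX and 4 and 2 for the differences. Over all genes DESeq2 called 295 higher and 48 lower of 12967, 258 and 256 of 14526, and 208 and 157 of 13591. Lane as a covariate gave 2 for T3 with CHX, 22 for time, and 4 and 2 for the differences. Over all 16087 genes the fit with lane called 326 higher and 334 lower, 2148 and 2266, 399 and 567, and 313 and 208. Leaving out 24 h T3 replicate 1 and 6 h CHX replicate 4 together gave 7 for T3 at 6 h and 2 for T3 with CHX. Over all 16262 genes tested that fit called 754 higher and 437 lower, and 225 and 19. Leaving out 24 h control replicates 2 and 4 together gave 7 for T3 at 24 h, beside 391 higher and 251 lower of 16229 genes. No filter gave 2 for the difference with CHX, beside 118 higher and 177 lower of 25727 genes. Leaving out single libraries gave 3 to 5, 8 to 17, 1 to 2, 44 to 47, 41 to 43, 0 to 3 and 1 to 2, in the order above. Over all genes these fits called 273 to 466 higher and 76 to 210 lower for T3 at 6 h. For T3 at 24 h they called 487 to 983 higher and 323 to 503 lower, and for T3 with CHX 129 to 212 and 7 to 40. All-gene ranges for the remaining comparisons are not given here. Same-numbered libraries did not deviate together (correlations -0.0882 to 0.0841 over 15 pairs). This gave no sign that the numbers pair samples, but with so few libraries a group it cannot exclude pairing. A replicate block by title number gave 6, 12, 1, 48, 42, 3 and 1 calls and a replicate block by letter 6, 13, 1, 48, 42, 2 and 1. Over all 16087 genes the block by number called 536, 746, 240, 5982, 4579, 168 and 76 higher. It called 224, 489, 47, 4950, 4590, 213 and 44 lower. The block by letter called 529, 727, 235, 5971, 4573, 165 and 118 higher and 235, 481, 38, 4936, 4580, 203 and 95 lower.

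Signs turned for members that were not called and lay near 0. At 6 h single libraries left out gave -0.15 to 0.01 for Plxna3, -0.26 to 0.21 for Plxnb3 and -0.15 to 0.09 for Unc5a. Over all alternatives 1 value of Plxna3, 3 of Plxnb3 and 3 of Unc5a turned sign. With CHX, they gave -0.05 to 0.00 for Plxna3, -0.16 to 0.12 for Plxnb3 and -0.06 to 0.07 for Plxnc1, and the alternatives held 0.06 and 0.08 for Plxnb3, -0.01 for Plxnc1, and -0.06 and -0.01 for Sema6a. The cause of these changes was not tested. With no filter on low counts, Robo4 was also called for time, at 43 members, beside 4480 higher and 4467 lower of 25727 genes.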
